A study of Homo sapiens with 6 samples.

Results

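Interferon-stimulated genes, together with the ADP-ribosyltransferases of antiviral defence, were examined in WT and PARP3-/- LN229 cells. The members were 46 gene symbols taken by name from the table of 33841 listed genes, and the rule that names them uses no measured value. LN229 is an established human glioblastoma cell line. Total RNA of proliferating cells was sequenced from 3 biological replicates of the parental line (WT) and 3 of PARP3-/- cells made by CRISPR/Cas9 editing. The study's methods describe a nickase with guide pairs against PARP3 and clones grown from single cells, and the clone that was sequenced is not named, so a difference between genotypes cannot be told apart from a difference between this clone and the parental population. All cells were grown in the same serum-supplemented medium, and the labels name neither interferon nor infection in any sample.

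Interferons are secreted proteins that warn cells of viral infection. Type I and type III interferons signal through receptor-bound JAK kinases to a complex that contains STAT2 and IRF9 and binds the interferon-stimulated response element (ISRE) in promoters, switching on genes that sense viral nucleic acid, degrade or edit it, block entry and budding, or attach the ubiquitin-like protein ISG15 to other proteins. Many of these genes have a low tonic level in unstimulated cells. Several PARP proteins are themselves products of interferon-stimulated genes, among them PARP9, PARP10, PARP12 and PARP14, which makes the family a natural set to follow in cells edited at PARP3.

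Library totals ranged from 29692065 to 46010369 counts on genes. A detection floor of 3 counts corresponded to 0.0673 to 0.0995 CPM (counts scaled to library size with TMM factors), which allows for counting error only. The edited gene did not separate the labels: PARP3 was at 34.8, 22.4 and 24.2 CPM in WT replicates 1, 2 and 3 and at 19.0, 22.5 and 19.5 CPM in PARP3-/- replicates 1, 2 and 3. The study reports a deletion within PARP3 on both alleles of its LN229 clones, and why reads on the gene remained was not tested. Vimentin was abundant in every library, whereas GFAP, the astrocyte filament, had 1 to 17 counts. Of 7 tested glioma markers, S100B was lower in PARP3-/- cells (log2 fold change −1.06, edgeR adjusted p = 0.0256), and with a block for the replicate number CD44, SOX2 and OLIG2 were lower too; their part in the results was not tested. The leukocyte markers summed to 23 to 32 counts in WT and 31 to 45 in PARP3-/- libraries, with 0 to 4 on PTPRC and 0 to 2 on CD14.

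Genotype was tested on all genes with the quasi-likelihood test of edgeR, with adjustment after Benjamini and Hochberg, and genes with an adjusted p under 0.05 were called. Of the 46 members, 45 had enough counts to be tested. OAS2, an oligoadenylate synthetase, did not, with 11, 3 and 11 counts in WT and 0, 4 and 2 in PARP3-/-. Without the replicate number in the model, 1 of 45 members was called, namely CMPK2, which was lower in PARP3-/- cells, whereas 4.70% of the 17144 tested genes were called. None was called higher. At an unadjusted p under 0.05 there were 5 higher and 4 lower members, CMPK2 included (20% of 45), beside 2788 of all tested genes (16.3%). DESeq2 called 3 members, SAMD9 as higher and CMPK2 and OAS1 as lower, beside 475 genes higher and 871 lower over all genes.

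The replicates of both genotypes shared much of their variation, and same-numbered samples deviated together, replicate 1 most clearly. When the replicate number was added to the model as a block, 14 of 45 members were called (31.1%), 8 higher and 6 lower, against 24.3% of all tested genes, 11.8% higher and 12.5% lower. Each of these 14 moved in 1 direction in all 3 same-numbered pairs. The fit with the block favours such genes, so this is no separate support for the calls. The members called higher were MX2, IRF7, SAMD9, SAMD9L, DDX58, IRF1, STAT2 and ADAR, and those called lower were CMPK2, IFITM2, OAS1, IFIT2, IFITM3 and BST2. The calls went both ways within the group, and the median log2 fold change of the 45 members was 0.00 without the block and −0.01 with it, beside −0.01 and 0.00 over all tested genes. In 39 of 45 members the change was within 0.5 on the log2 scale, as in 87.3% of all tested genes, and only CMPK2 and MX2 moved beyond 1. WT and PARP3-/- libraries did not overlap for 14 members (31.1%, 7 higher and 7 lower), as for 22.8% of all tested genes. In bulk RNA, fewer cells expressing a gene and less RNA per cell cannot be told apart.

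**Figure D1:**
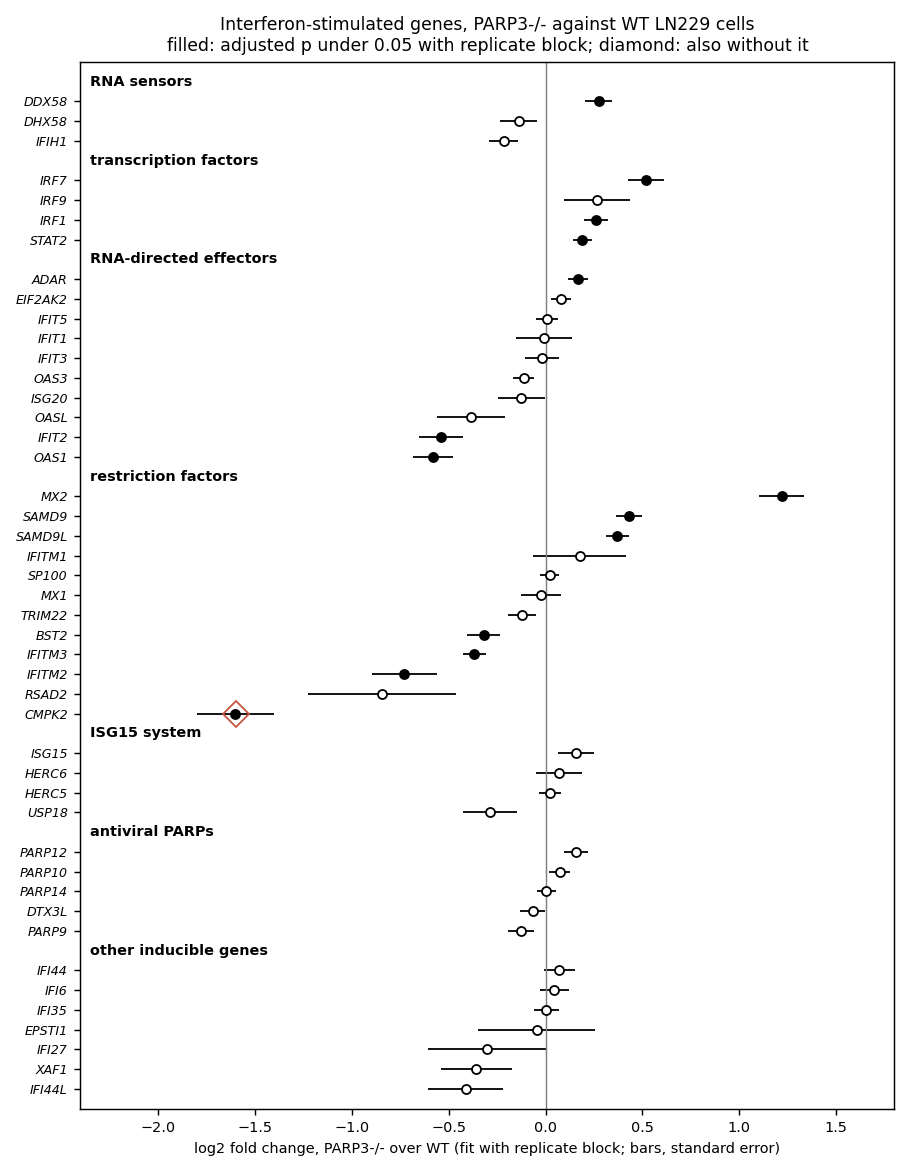
Log2 fold change of each tested member between PARP3-/- and WT cells in the fit with the replicate block (x axis; bars, standard error), with members grouped by role along the y axis, filled symbols for an adjusted p under 0.05 and a diamond for the member also called without the block. The 8 members called higher and the 6 called lower lie on both sides of 0, with MX2 at 1.22 and CMPK2 at −1.60 as the extremes.

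The 8 calls of MX2, IRF7, SAMD9, SAMD9L, CMPK2, OAS1, IFIT2 and IFITM3 were made in every fit with the block, that is with edgeR, with DESeq2 and after leaving out any 1 same-numbered pair. The other 6 were lost in at least 1 of these fits. The share of all tested genes that kept a call in every such fit was not worked out. Whether this stability is particular to these members therefore cannot be said. Without the block, edgeR called only CMPK2 of the 8. DDX58, STAT2 and BST2 were lost with DESeq2 and without replicate 2 or replicate 3, ADAR was lost without replicate 2 or 3, IRF1 was lost without replicate 3, and IFITM2 was lost with DESeq2 and without replicate 3.

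Among the cytosolic sensors of viral RNA, DDX58, which encodes RIG-I, was at 14.2, 11.8 and 12.7 CPM in WT and at 16.7, 14.6 and 15.4 CPM in PARP3-/- replicates 1, 2 and 3. All PARP3-/- libraries were above all WT libraries, and the difference within same-numbered pairs was even, with PARP3-/- over WT ratios of 1.17, 1.24 and 1.21. The log2 fold change was 0.27 (SE 0.07, adjusted p = 0.0161 from edgeR with the block; 0.271 without it). IFIH1, which encodes MDA5, had the highest level per length of the 3 sensors, 5.65 ± 1.45 CPM per kb in WT (SD, n = 3). It was at 25.4, 15.1 and 20.2 CPM in WT and at 22.4, 14.4 and 15.3 CPM in PARP3-/-, and the genotypes overlapped. Its log2 fold change of −0.22 (SE 0.08) missed the threshold with the block (edgeR adjusted p = 0.0629) and passed it when the replicate 1 pair was left out. DHX58, which encodes the regulatory sensor LGP2, had a log2 fold change of −0.14 (SE 0.09) and was not called (edgeR adjusted p = 0.334 with the block).

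The 4 transcription factors all had fold changes above 0, with a median of 0.26 on the log2 scale, and 3 were called with the block. Over all tested genes 24.3% were called with it. IRF7, the factor that drives expression of type I interferon genes after infection, was at 15.7, 8.57 and 10.5 CPM in WT and at 19.1, 14.5 and 15.2 CPM in PARP3-/-. WT replicate 1 lay above PARP3-/- replicates 2 and 3, so the genotypes overlapped, but PARP3-/- was higher in each same-numbered pair, by ratios of 1.22, 1.69 and 1.45. With the block IRF7 rose by 0.52 on the log2 scale (SE 0.09, edgeR adjusted p = 0.00216; 0.371 without it). IRF1, which is strongly induced by interferon gamma, was at 32.6, 33.3 and 27.7 CPM in WT and at 41.0, 36.2 and 35.0 CPM in PARP3-/-, without overlap. Its log2 fold change was 0.26 (SE 0.06, edgeR adjusted p = 0.0113 with the block).

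STAT2, the most abundant of the 4 per length at 17.1 ± 3.61 CPM per kb in WT (SD, n = 3), was at 93.2, 62.6 and 70.1 CPM in WT and at 102, 75.4 and 78.7 CPM in PARP3-/-. Replicate 1 was the highest library of both genotypes, and the genotypes overlapped. STAT2 was higher by 0.19 on the log2 scale in PARP3-/- cells (SE 0.05, edgeR adjusted p = 0.0187 with the block), while the 158 other tested genes within 5 Mb of STAT2 had a median of −0.18. IRF9, the DNA-binding partner of STAT2, was at 1.07 to 2.22 CPM in WT and 1.28 to 2.72 CPM in PARP3-/-, a log2 fold change of 0.27 (SE 0.17) that did not pass (edgeR adjusted p = 0.296 with the block).

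Of the effectors that act on RNA, 10 were tested, and with the block 1 was called higher and 2 lower. This is 30% of the 10, beside 24.3% of all tested genes. OAS1 encodes a synthetase that, on binding double-stranded RNA, makes the oligoadenylates that activate RNase L. It was at 10.2, 10.4 and 10.2 CPM in WT and at 6.40, 6.10 and 8.20 CPM in PARP3-/-. The 3 WT libraries were nearly equal and all above the PARP3-/- libraries. The mean was 10.3 ± 0.116 CPM in WT and 6.90 ± 1.13 CPM in PARP3-/- (SD, n = 3), and the log2 fold change was −0.58 (SE 0.10, adjusted p = 0.00223 from edgeR with the block). Without the block the adjusted p was 0.072 with edgeR and 0.0114 with DESeq2. The related synthetase genes did not pass with the block. OAS3, which had the highest mean level per length of the synthetase genes in WT, was at 43.0, 70.9 and 63.7 CPM in WT and at 41.8, 60.4 and 61.2 CPM in PARP3-/- (log2 fold change −0.11, SE 0.06, edgeR adjusted p = 0.173), and OASL had a log2 fold change of −0.39 (SE 0.17, edgeR adjusted p = 0.142).

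The IFIT proteins bind viral RNA that lacks the cap marks of host mRNA. IFIT2 was at 18.4, 9.69 and 17.4 CPM in WT and at 14.2, 7.92 and 9.10 CPM in PARP3-/-. The genotypes overlapped through WT replicate 2, and PARP3-/- was the lower of each same-numbered pair. For IFIT2 the log2 fold change was −0.54 (SE 0.11, adjusted p = 0.00604 from edgeR with the block; 0.464 without it). The gene overlaps others in the annotation, LIPA on the opposite strand among them, and union-mode counting leaves out reads shared between genes. The other 3 IFIT genes were near 0 with the block, IFIT1 at −0.01 (SE 0.14), IFIT3 at −0.02 (SE 0.09) and IFIT5 at 0.01 (SE 0.06) on the log2 scale.

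ADAR edits adenosine to inosine in double-stranded RNA and so keeps cellular RNA from being sensed as viral. It was the most abundant effector per length, at 52.1 ± 2.30 CPM per kb in WT (SD, n = 3), and its libraries held 328, 358 and 347 CPM in WT and 373, 392 and 394 CPM in PARP3-/-. The genotypes did not overlap, and the difference was small: 0.17 on the log2 scale (SE 0.05, edgeR adjusted p = 0.037 with the block; 0.381 without it). The 195 other tested genes within 5 Mb of ADAR had a median of 0.11. EIF2AK2, which encodes the RNA-activated kinase PKR, was at 112 to 130 CPM in WT and 123 to 129 CPM in PARP3-/- (log2 fold change 0.08, SE 0.05, edgeR adjusted p = 0.3 with the block). ISG20, an exonuclease, had a log2 fold change of −0.12 (SE 0.12, edgeR adjusted p = 0.509 with the block).

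The 12 restriction factors, proteins that block a step of the viral life cycle directly, held 7 of the 14 members called with the block, 3 higher and 4 lower, and in 6 of the 12 the genotypes did not overlap, where 24.3% of all tested genes were called and 22.8% did not overlap. Promoter sequences are shown for 4 of them, all called with the block. IFITM3, BST2 and SAMD9 were chosen as the only 3 of 10 called members with a promoter entry whose windows hold the ISRE letters. CMPK2, the member with the largest decrease, was chosen from the called members whose windows lack them. Of the 46 members, 36 matched an entry of the RefSeq promoter table (GRCh38.p14), which spans 250 bases before to 50 bases after the gene start. The ISRE core was searched on both strands as GAAA, any 2 bases and GAAA again, and was held by 22 of 36 members (61.1%), against 3.57% of 35116 promoters of the same length. The core bound by STAT dimers, TTC and GAA with any 3 bases between them, was held by 9 of 36 members (25%) and by 7.66% of all promoters, and these letters can overlap those of the ISRE core, as 1 match does in BST2. Capitals mark the ISRE core on either strand in the 250 bases before the start, written on the strand of the gene. All 4 genes lie on the minus strand, with IFITM3 at chr11:320861-321110, BST2 at chr19:17405631-17405880, SAMD9 at chr7:93117980-93118229 and CMPK2 at chr2:6866636-6866885.

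IFITM3: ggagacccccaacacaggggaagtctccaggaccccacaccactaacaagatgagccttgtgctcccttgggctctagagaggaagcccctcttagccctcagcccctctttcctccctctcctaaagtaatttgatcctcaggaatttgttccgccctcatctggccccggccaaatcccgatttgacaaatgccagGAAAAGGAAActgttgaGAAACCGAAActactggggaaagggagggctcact

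BST2: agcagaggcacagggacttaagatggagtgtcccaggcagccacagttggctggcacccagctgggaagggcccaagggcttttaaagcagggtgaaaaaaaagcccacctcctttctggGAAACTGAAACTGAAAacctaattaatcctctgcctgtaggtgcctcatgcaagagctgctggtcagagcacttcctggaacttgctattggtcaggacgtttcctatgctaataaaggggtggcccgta

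SAMD9: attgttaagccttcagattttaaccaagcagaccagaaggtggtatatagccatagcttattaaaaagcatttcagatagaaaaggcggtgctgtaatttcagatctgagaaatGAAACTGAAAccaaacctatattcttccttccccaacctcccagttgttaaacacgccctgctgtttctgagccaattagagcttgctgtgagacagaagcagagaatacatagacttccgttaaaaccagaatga

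CMPK2: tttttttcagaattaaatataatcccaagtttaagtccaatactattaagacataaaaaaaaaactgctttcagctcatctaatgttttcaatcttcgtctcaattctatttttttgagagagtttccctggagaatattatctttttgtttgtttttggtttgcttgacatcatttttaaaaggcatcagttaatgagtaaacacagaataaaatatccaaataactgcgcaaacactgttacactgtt

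IFITM3 and BST2 each held 2 matches, those of BST2 overlapping each other, and SAMD9 held 1. Of the members with a promoter entry, the ISRE core was held by 3 of 10 called with the block and by 19 of 26 not called. This difference was not tested, and it depends on the letters searched. GAAA repeats with only 1 base between them were not counted. Windows that hold such repeats include those of OAS1 and DDX58, which were called, and of RSAD2 and IFI35, which were not. A match is a description of letters and not of binding, and a window without one, such as that of CMPK2, says nothing about the factors that act on the gene. The RSAD2 window, at chr2:6865635-6865884, lies within the annotated span of CMPK2, so such letters also occur close to the CMPK2 window. The CMPK2 window in turn lies within the annotated span of RSAD2.

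CMPK2 encodes a mitochondrial nucleotide kinase and lies head to head with RSAD2, whose product viperin makes a chain-terminating nucleotide from CTP. The gene spans chr2:6840570-6866635 on hg38. It was at 3.12, 5.67 and 5.36 CPM in WT replicates 1, 2 and 3, from 114, 238 and 220 counts, and at 1.76, 1.62 and 1.32 CPM in PARP3-/-, from 53, 72 and 50 counts. All PARP3-/- libraries were below all WT libraries, and WT replicate 1 was the lowest of the WT libraries. The mean was 4.72 ± 1.39 CPM in WT and 1.57 ± 0.222 CPM in PARP3-/- (SD, n = 3), a log2 fold change of −1.59 (SE 0.26, adjusted p = 0.0185 from edgeR without the block and 0.00021 with it). Without the block the call was lost when WT replicate 2 (adjusted p = 0.0592), WT replicate 3 (0.0935), PARP3-/- replicate 2 (0.0938) or PARP3-/- replicate 3 (0.0973) was left out of the edgeR fit, with log2 fold changes of −1.82 to −1.45 over the 6 omissions. RSAD2 was counted 20, 14 and 15 times in WT and 9, 4 and 12 times in PARP3-/-, also without overlap, and its log2 fold change of −0.84 (SE 0.38) did not pass (edgeR adjusted p = 0.141 with the block). The annotated spans of the 2 genes overlap on opposite strands.

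MX2 encodes a dynamin-like GTPase that restricts HIV at nuclear entry. The gene spans chr21:41361943-41409390. It was at 4.87, 1.86 and 2.02 CPM in WT, from 178, 78 and 83 counts, and at 10.2, 4.78 and 4.92 CPM in PARP3-/-, from 309, 213 and 186 counts. Replicate 1 was the high library of both genotypes, and WT replicate 1 lay among PARP3-/- replicates 2 and 3. Within same-numbered pairs the PARP3-/- over WT ratio was 2.10, 2.57 and 2.43. The log2 fold change was accordingly 1.22 with the block (SE 0.12, edgeR adjusted p = 3.32e-05) and 1.19 without it (SE 0.46, edgeR adjusted p = 0.265), the same size with a larger error. MX1, the neighbouring paralog that restricts influenza viruses, was at 5.69, 4.74 and 4.78 CPM in WT and at 5.57, 4.82 and 4.58 CPM in PARP3-/-, a log2 fold change of −0.02 (SE 0.10) with the block.

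SAMD9 and SAMD9L are adjacent genes of chromosome 7 whose products restrict poxviruses and repress translation. SAMD9 was at 42.1, 47.8 and 53.0 CPM in WT and at 65.7, 61.8 and 65.1 CPM in PARP3-/-, and SAMD9L at 23.5, 19.1 and 19.2 CPM in WT and at 30.6, 24.8 and 24.6 CPM in PARP3-/-. Neither gene overlapped between genotypes, and the SAMD9L pairs were even, with PARP3-/- over WT ratios of 1.30, 1.29 and 1.28. With the block the log2 fold change of SAMD9 was 0.43 (SE 0.07, edgeR adjusted p = 0.000842) and that of SAMD9L was 0.37 (SE 0.06, edgeR adjusted p = 0.00109). Without the block the adjusted p of SAMD9 was 0.0613 with edgeR and 0.0166 with DESeq2. The 48 other tested genes within 5 Mb had a median log2 fold change of 0.17 with the block, and the part of this regional level in the change of the 2 genes was not tested.

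The IFITM proteins stop enveloped viruses from fusing with cell membranes. IFITM3 had the highest level per length of all members, 132 ± 44 CPM per kb in WT (SD, n = 3), above 96.2% of the tested protein-coding genes. It was at 111, 59.2 and 71.7 CPM in WT and at 81.4, 51.6 and 52.2 CPM in PARP3-/-, with replicate 1 the highest of both genotypes and the genotypes overlapping. The pair ratios were 0.735, 0.871 and 0.728, and the log2 fold change was −0.37 (SE 0.06, adjusted p = 0.00121 from edgeR with the block; 0.592 without it). IFITM2 was low, at 2.93, 1.81 and 2.17 CPM in WT and at 1.66, 1.30 and 1.16 CPM in PARP3-/-, without overlap. Its log2 fold change was −0.73 (SE 0.17, edgeR adjusted p = 0.00893 with the block). IFITM1 was at 0.512 to 1.01 CPM in WT and 0.493 to 1.33 CPM in PARP3-/-, with a log2 fold change of 0.18 (SE 0.24, edgeR adjusted p = 0.652 with the block). These neighbouring genes of chromosome 11 are close in sequence, and the annotated span of IFITM2 covers that of IFITM1, so reads lost or split between copies make their levels uncertain.

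BST2, or tetherin, holds budding virions on the cell surface. It was at 16.6, 18.3 and 18.3 CPM in WT and at 15.6, 13.0 and 14.2 CPM in PARP3-/-. The genotypes did not overlap, with PARP3-/- replicate 1 close to WT replicate 1. BST2 had a log2 fold change of −0.32 (SE 0.08, edgeR adjusted p = 0.0188 with the block; 0.174 without it). TRIM22, a ubiquitin ligase of the TRIM family, had −0.12 (SE 0.07) and SP100, a nuclear body protein, 0.02 (SE 0.05), and neither passed.

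**Figure D2:**
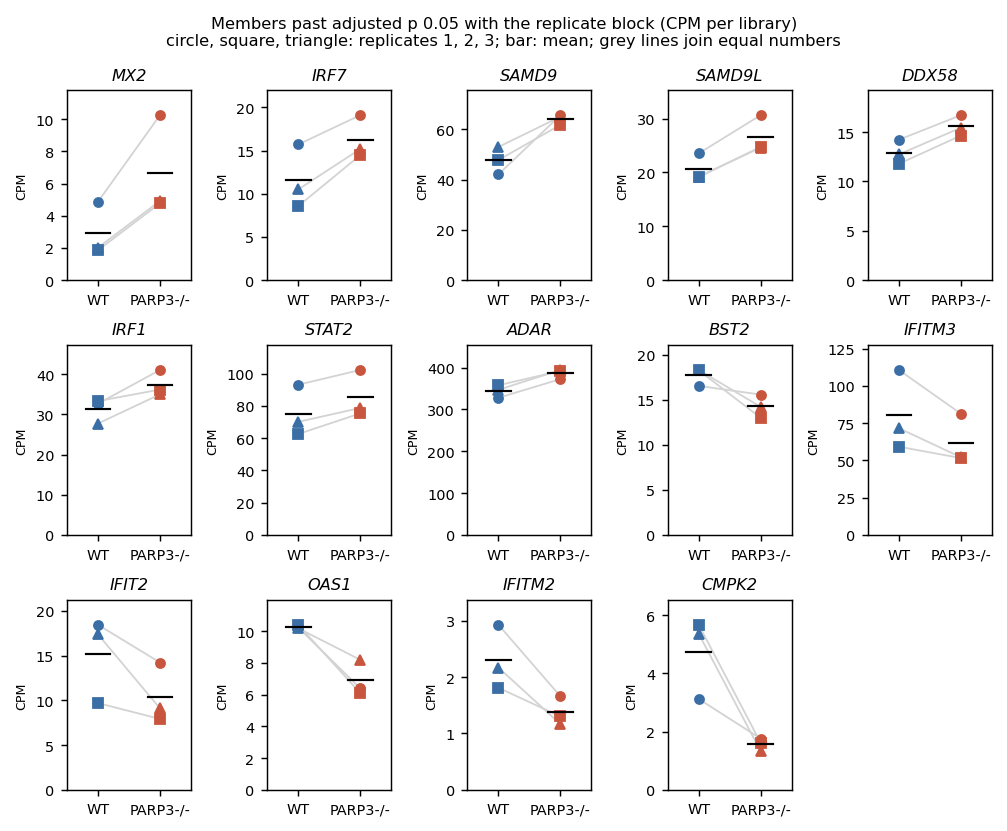
CPM of the 14 members called with the replicate block, 1 panel per gene with its own axis from 0, for the WT and PARP3-/- libraries, with same-numbered libraries joined by grey lines and a bar at the genotype mean. Every line within a panel runs in 1 direction, which the choice of genes by the fit with the block favours. The clouds of points overlap between genotypes in genes such as MX2, IRF7, IFIT2 and IFITM3.

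Of the 4 genes of the ISG15 system, 0 were called with edgeR or DESeq2, with or without the block. In the edgeR fit without it 0 had an unadjusted p under 0.05, beside 16.3% of all tested genes. Of all tested genes, edgeR called 4.70% without the block and 24.3% with it. In a list of 4 genes, 0 calls lie close to these shares. ISG15, the ubiquitin-like modifier, had the highest level per length of the 4, 11.6 ± 0.762 CPM per kb in WT (SD, n = 3), and was at 6.84, 7.79 and 7.50 CPM in WT and at 8.49, 8.01 and 8.28 CPM in PARP3-/-. USP18, which removes ISG15 and damps type I receptor signalling, was at 2.44, 3.02 and 2.66 CPM in WT and at 2.19, 2.31 and 2.17 CPM in PARP3-/-. The genotypes did not overlap for either gene, as for 22.8% of all tested genes, with ISG15 above and USP18 below WT in PARP3-/- cells. The log2 fold changes with the block, 0.16 (SE 0.09, edgeR adjusted p = 0.256) and −0.29 (SE 0.14, edgeR adjusted p = 0.169), missed the threshold. HERC5, the main ligase for ISG15 in human cells, was at 0.02 (SE 0.06), and HERC6 at 0.07 (SE 0.12), both on the log2 scale.

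The antiviral PARPs and their partner DTX3L were called in 0 of 5 cases with edgeR and DESeq2, with and without the block. In the edgeR fit without it 0 had an unadjusted p under 0.05, beside 16.3% of all tested genes. The share of all tested genes called by edgeR was 4.70% without the block and 24.3% with it. With only 5 genes, 0 calls do not set the antiviral PARPs apart from these shares. The values of PARP14, a mono-ADP-ribosyltransferase of macrophage and interferon responses, were 73.1, 55.9 and 60.4 CPM in WT and 74.0, 57.2 and 59.0 CPM in PARP3-/-. The genotypes were interleaved and differed by a log2 fold change of 0.00 (SE 0.05) with the block, while replicate 1 was the high library of both. PARP12, a zinc finger PARP that binds RNA, was at 26.7, 24.7 and 24.4 CPM in WT and at 28.0, 27.1 and 29.5 CPM in PARP3-/-, all above WT, and came nearest to a call with a log2 fold change of 0.16 (SE 0.06, edgeR adjusted p = 0.0934 with the block). It was called higher in the edgeR fit with the block when the replicate 1 pair was left out. The 60 other tested genes within 5 Mb of PARP12 had a median of 0.13. PARP10, a mono-ADP-ribosyltransferase, was the most abundant per length at 9.09 ± 0.686 CPM per kb in WT (SD, n = 3), and its libraries were at 34.6, 30.1 and 30.9 CPM in WT and at 34.9, 32.8 and 32.6 CPM in PARP3-/- (log2 fold change 0.07, SE 0.06, edgeR adjusted p = 0.392 with the block).

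PARP9 and the ubiquitin ligase DTX3L act as a heterodimer, and their genes share a head-to-head promoter region. PARP9 was at 15.4, 15.4 and 16.8 CPM in WT and at 14.1, 14.5 and 14.9 CPM in PARP3-/-, all below WT, with a log2 fold change of −0.13 (SE 0.07, edgeR adjusted p = 0.22 with the block). DTX3L was at 38.4, 38.6 and 41.8 CPM in WT and at 41.0, 36.2 and 36.4 CPM in PARP3-/-, with overlap, and a log2 fold change of −0.07 (SE 0.06, edgeR adjusted p = 0.5 with the block).

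Of the 7 remaining inducible genes 0 were called with edgeR or DESeq2, with or without the block. In the edgeR fit without it 0 had an unadjusted p under 0.05, beside 16.3% of all tested genes. The edgeR calls over all tested genes were 4.70% without the block and 24.3% with it. A list of 7 genes is short for a comparison with these shares. IFI35, the most abundant of them per length at 16.6 ± 1.69 CPM per kb in WT (SD, n = 3), was at 21.8, 18.0 and 18.8 CPM in WT and at 21.5, 19.0 and 18.2 CPM in PARP3-/-. IFI6, a mitochondrial protein of the interferon response, was at 15.1, 9.50 and 10.5 CPM in WT and at 15.4, 10.1 and 10.6 CPM in PARP3-/-. In both genes the genotypes were interleaved and replicate 1 was the high library. IFI44 had a log2 fold change of 0.07 (SE 0.08), EPSTI1 of −0.05 (SE 0.30), IFI44L of −0.41 (SE 0.19) and XAF1 of −0.36 (SE 0.18) with the block. IFI27, a gene strongly induced by interferon in many cells, had 11 to 19 counts per library.

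**Figure D3:**
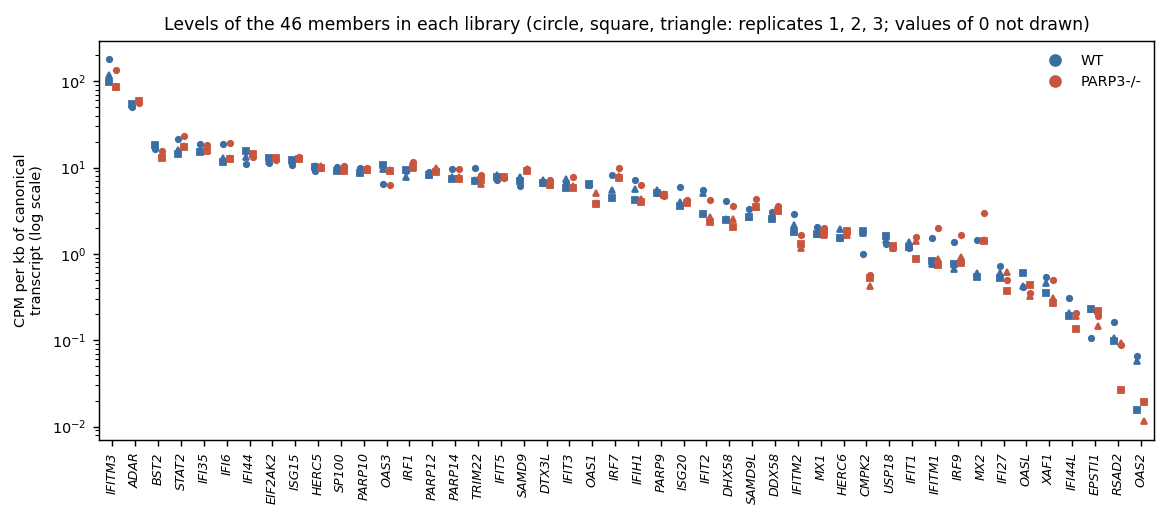
CPM per kb of canonical transcript of the 46 members in each library (y axis, log scale; x axis, members ordered by level), with WT and PARP3-/- in different colours and a different symbol for each replicate number. The members span from IFITM3 at 132 CPM per kb in WT down to genes near the counting limit, and the genotypes lie close together next to the spread between members.

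As a whole the group was expressed at a low to moderate level. In WT cells 9 members lay above 10 CPM per kb, 28 between 1 and 10, and 9 below 1. The median level of the members was 5.84 CPM per kb in WT and 4.81 in PARP3-/-. The genes at the middle rank were not the same in both, so this is not a change of given genes. The median log2 fold change of the 45 tested members was 0.00 without the block. The WT median over 13115 tested protein-coding genes was 9.19, and the members' median percentile among these genes was 39.2. All members together took 1278 to 1357 CPM in WT and 1322 to 1436 CPM in PARP3-/-. Lengths were those of canonical transcripts, and with the authors' median transcript length IFITM3 went from rank 1 to rank 3 and ADAR from rank 2 to rank 1. In the ISG15 system HERC5, at 15.5 CPM per kb in WT, then stood above ISG15 at 10.4.

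Much of the variation of these genes lay between replicates of 1 genotype. In a joint test of the replicate number, 14 of 45 members were called (31.1%), beside 35.3% of all tested genes. In 13 of the 14 the highest level was in replicate 1 (28.9% of 45), which was the case for 16.3% of all tested genes. These 13 were IFIH1, DHX58, STAT2, IRF7, IRF9, IFIT2, IFITM1, IFITM3, MX2, TRIM22, SAMD9L, PARP14 and IFI6. The steepest was MX2, in which replicate 1 was 2.33 times replicate 2 and 2.22 times replicate 3 (edgeR adjusted p = 0.000124). OAS3 went the other way and was lowest in replicate 1 (edgeR adjusted p = 0.000141). What the replicate number stands for is not given in the labels, and 6 of these 14 members were also called for genotype with the block.

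**Figure D4:**
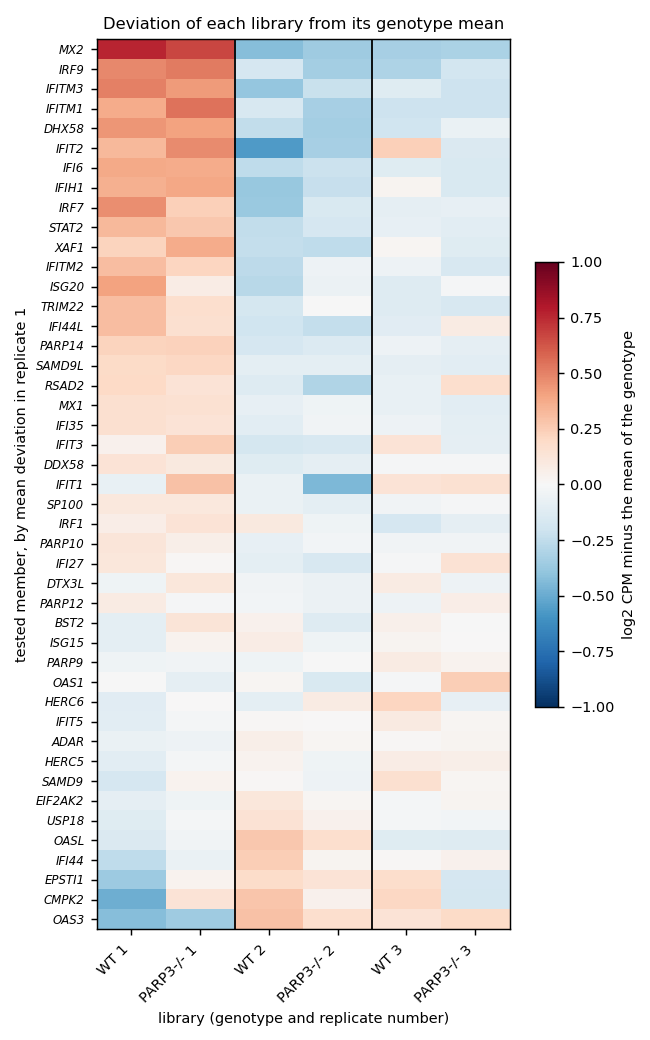
Deviation of each library from the mean of its genotype on the log2 scale (colour) for the tested members (rows, ordered by their mean deviation in replicate 1) in the 6 libraries (columns). In most rows of the 13 members named in the text the 2 columns of replicate 1 share a sign, and OAS3 shows the opposite sign.

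The rest of the pathway was followed in 93 genes of interferon ligands, receptors, JAK-STAT signalling, sensing adaptors, other ADP-ribosyltransferases and further interferon-stimulated genes, of which 66 were tested. Of 21 interferon ligands, 2 had counts to report. IFNB1, which encodes interferon beta, had 0, 1 and 1 counts in WT and 1, 1 and 0 in PARP3-/-, and IFNE had 15, 7 and 11 counts in WT and 13, 7 and 5 in PARP3-/-. The other 19 ligands were not found by symbol among the 33841 listed genes, so no counts can be given for them. Without the block 4 of 66 genes were called, 2 higher and 2 lower, and with it 21 (31.8%), 14 higher and 7 lower. Over all tested genes 4.70% were called without the block and 24.3% with it, 11.8% higher and 12.5% lower.

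TMEM173, which encodes STING, the adaptor of cytosolic DNA sensing, rose from 7.62 ± 0.509 to 15.3 ± 0.614 CPM (SD, n = 3). Its libraries were at 8.16, 7.14 and 7.55 CPM in WT and at 14.6, 15.8 and 15.4 CPM in PARP3-/-, far apart beside the spread within either genotype. The log2 fold change was 1.00 (SE 0.10, edgeR adjusted p = 0.00234 without the block). IFNLR1, the specific chain of the type III interferon receptor, was at 2.33, 2.19 and 2.07 CPM in WT and at 3.55, 3.54 and 3.33 CPM in PARP3-/- (log2 fold change 0.66, SE 0.13, edgeR adjusted p = 0.0416), a call that was lost when any 1 library was left out.

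UBE2L6, the conjugating enzyme that passes ISG15 to its ligases, was at 24.1, 21.5 and 21.7 CPM in WT and at 16.5, 14.7 and 15.8 CPM in PARP3-/-. PARP11, a mono-ADP-ribosyltransferase, was at 4.05, 3.79 and 2.88 CPM in WT and at 1.56, 1.48 and 1.27 CPM in PARP3-/-. Both were lower in all PARP3-/- libraries. The log2 fold change was −0.52 for UBE2L6 (SE 0.09, edgeR adjusted p = 0.0234) and −1.31 for PARP11 (SE 0.19, edgeR adjusted p = 0.0113), and the 96 other tested genes within 5 Mb of PARP11 had a median of −0.20. Without PARP3-/- replicate 2 or PARP3-/- replicate 3 neither gene was called, and UBE2L6 was also not called without WT replicate 2 or WT replicate 3. The change of PARP3 was −0.42 on the log2 scale (SE 0.18, edgeR adjusted p = 0.307) without the block and −0.39 (SE 0.13, adjusted p = 0.0469) with it.

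**Figure D5:**
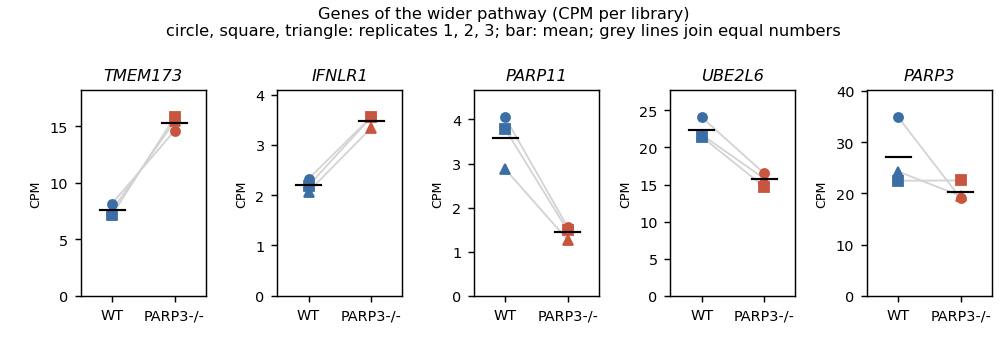
CPM of genes of the wider interferon pathway in the WT and PARP3-/- libraries, 1 panel per gene with its own axis from 0, with same-numbered libraries joined by grey lines and a bar at the genotype mean. The 3 PARP3-/- libraries of TMEM173 sit between 14.6 and 15.8 CPM, above the WT libraries at 7.14 to 8.16.

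With the block, 24.3% of all tested genes were called, and the calls of the wider pathway fell in each of its layers except the ligands. Only 1 ligand was tested. Of 6 receptors, 1 was higher. Of 8 JAK-STAT genes, 1 was higher. Among 11 sensing adaptors 3 were higher, TMEM173 and the kinases TBK1 and IKBKE, and 2 were lower, TLR3 and the DNA sensor IFI16. Among 12 other ADP-ribosyltransferases 5 were higher, namely PARP1, PARP4, PARP6, PARP16 and the antiviral zinc finger protein ZC3HAV1, and 2 were lower, PARP3 and PARP11. Among 28 further interferon-stimulated genes 4 were higher, GBP3, MOV10, RNF213 and LGALS3BP, and 3 were lower, GBP2, UBE2L6 and APOL1.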

How the data were processed

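Total RNA libraries of 6 LN229 samples, ribosomal RNA depleted and stranded, were sequenced; the labels name polyA RNA instead. Per the labels and the study's methods, the authors trimmed reads with cutadapt 1.10, removed ribosomal reads with Bowtie2 2.2.8, aligned to hg38 with STAR 2.5.3a and made the deposited raw counts per Ensembl gene with HTSeq 0.6.1p1 in union mode. The strand setting is not given in the sources used here. A further 12 per-sample columns were not used, nor were the authors' own fold changes, p-values and adjusted p-values. The labels describe a disruption from exon 2 to exon 9, and the methods place guides in exons 2 and 5.

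Counts were analysed in R 4.3.3 with edgeR 4.0.16 (TMM, filterByExpr with a minimum count of 10, quasi-likelihood test, Benjamini-Hochberg adjustment over all 17144 tested genes). The standard error of each fold change was worked out from its F statistic. All 6 samples entered each fit. Same-numbered samples were taken as paired because their deviations from the genotype means correlated in each pair (0.788, 0.680 and 0.383). Replicate 1 stood apart, whereas replicates 2 and 3 also correlated across numbers (0.576 and 0.367), so the numbers separate these less well. Values with the replicate number as a block stand beside those without it. DESeq2 1.42.0, other size factors, other filters and omission of each sample were alternatives. The script was tested on simulated counts. The closest libraries still differed by more than sampling noise.

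Every member was accounted for, with values in each sample for those called without or with the block and for the most abundant of each role. Wider-pathway genes were named when called without the block or when set by name, and those named for the block alone were chosen after their values were seen. A gene set by name is not reported here. The members and lists were chosen with earlier results of these data known. Lengths and overlaps came from GENCODE 44 and promoters from RefSeq, of which 36 of 46 members matched. P-values measure the spread between the cultures of each genotype, and whether the PARP3-/- cultures came from 1 clone is not stated.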

Additional observations from a re-analysis of the deposited data

How the results depend on the processing

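The number of members called depended chiefly on the replicate block. Members called higher went from 0 to 1 with DESeq2, 8 with the replicate block and 6 with DESeq2 and the block, and lower from 1 to 2, 6 and 4. All genes called higher went from 234 to 475, 2023 and 1259, and lower from 571 to 871, 2143 and 1346. Genes of the wider pathway called higher went from 2 to 14 with the replicate block and 9 with DESeq2 and the block, and lower from 2 to 7 and 4. At a mean count of at least 50, 331 genes were called lower. Without a filter 1 wider-pathway gene was called higher, as IFNLR1 was lost (adjusted p = 0.0742). At an adjusted p under 0.001 with a log2 fold change beyond 1, the calls were 0 higher and 0 lower for members, 6 and 76 for all genes, and 0 and 0 for the wider pathway. With the block these limits gave 1 and 1 for members (MX2 and CMPK2), 91 and 393 for all genes, and 1 and 1 for the wider pathway.

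With 1 library left out, or 1 same-numbered pair in the fits with the block, calls were 0 to 9 members higher and 0 to 8 lower, 49 to 2501 genes higher and 281 to 2649 lower, and 1 to 16 wider-pathway genes higher and 0 to 8 lower. Log2 fold changes that crossed 0 in these fits ranged from −0.38 to 0.13 for DHX58, −0.12 to 0.63 for IRF9, −0.31 to 0.039 for OAS3, −0.20 to 0.23 for IFIT1, −0.15 to 0.10 for IFIT3, −0.043 to 0.053 for IFIT5, −0.30 to 0.087 for ISG20, −0.35 to 0.54 for IFITM1, −0.11 to 0.065 for MX1, −0.23 to 0.038 for TRIM22, −0.030 to 0.075 for SP100, −0.030 to 0.062 for HERC5, −0.036 to 0.24 for HERC6, −0.12 to 0.12 for PARP14, −0.15 to 0.0035 for DTX3L, −0.17 to 0.26 for IFI6, −0.070 to 0.085 for IFI35, −0.054 to 0.20 for IFI44 and −0.33 to 0.26 for EPSTI1. Of these genes only OAS3 was called in any such fit, as lower in the fit with the block without replicate 1. Sign also changed for IFIT1 at −0.0081 with the replicate block and −0.0035 with DESeq2 and the block, for PARP14 at −0.0021 without a filter and −0.0025 at the mean count limit, for IFI35 at −0.0053 and −0.0067, and for EPSTI1 at 0.017 with DESeq2 and the block. The cause was not tested. Other size factors changed no member call. Without the replicate 1 pair the fit with the block also called PARP12 higher and IFIH1 and OAS3 lower, and without the replicate 2 pair it called OAS2 lower. Fits without 1 pair rest on 2 samples per genotype. Depth limits RSAD2, IFI27 and OAS2, which had at most 20 counts per library.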
